A study of Homo sapiens with 6 samples.

Results

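The genes described here are 53 genes of intraflagellar transport (IFT), of the BBSome with its chaperones and regulators, and of the ciliary transition zone. They were taken by gene name from a list of these protein modules, and all 53 were found among the 58735 genes of the count table. All 53 had counts in every library and passed the filter on low counts that left 16591 genes to test. Messenger RNA was counted in 6 libraries of RPE-1, an established human retinal pigment epithelial line. In this derivative, centrin 2 (CETN2) carries GFP and PLK4, the kinase that starts centriole duplication, is transcribed from a doxycycline-inducible promoter driven by rtTA. In 3 libraries the cells had received an siRNA against SON, a splicing factor of nuclear speckles (siSON), and in 3 a scramble siRNA (siControl). PLK4 was induced with 1 µg/mL doxycycline in both groups, so no library shows the effect of SON depletion in cells without induced PLK4. Whether the 3 libraries of a group came from separate cultures is not stated, and the p-values measure the spread between these libraries.

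A primary cilium is a microtubule-based antenna that grows from the mother centriole. IFT trains carry proteins along it: the IFT-B complex, with kinesin-2, serves transport to the tip, and the IFT-A complex, with dynein 2, serves the return and the entry of membrane proteins. The BBSome is a coat-like complex that rides on these trains and takes membrane proteins out of the cilium, and the transition zone at the base gates what enters and leaves. RPE-1 cells form a primary cilium when they are deprived of serum, and are widely used to study it.

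SON itself had 295.3, 312.7 and 283.9 CPM (counts scaled by library size) in the siControl libraries and 67.96, 69.96 and 65.00 CPM in the siSON libraries, so that 22.8% of the control level remained (edgeR log2 fold change -2.14, SE 0.06, adjusted p 6.78e-10). The 2-sided exact permutation test of 3 libraries against 3 gave p = 0.1, the smallest it can give. Library totals ran from 54572365 to 69764836 counts. Pairs of libraries within a group that included replicate 1 differed more (chi-square per degree of freedom 18.26 to 26.09) than replicates 2 and 3 did (7.16 and 7.18). Of 8 markers of retinal pigment epithelium, 4 passed the filter (BEST1, MITF, OTX2 and PMEL) and TYR had no count in any library. The summed level of the 8 was 51.1 to 52.9 CPM in siControl and 74.0 to 83.3 CPM in siSON, but PMEL went from 2.04, 2.04 and 2.11 CPM to 0.172, 0.252 and 0.177 CPM and RPE65 from 18, 6 and 6 counts to 0 in all siSON libraries. Of 17 markers of multiciliated cells, 8 passed the filter and DNAI2, RSPH1, SPAG6 and TEKT1 had no count in any library. FOXJ1 had at most 3 counts in a library. The summed level of the 17 was 21.5 to 23.0 CPM in siControl and 10.9 to 14.7 CPM in siSON. CCNO made up much of it, at 10.3, 10.8 and 11.0 CPM in siControl and 6.53, 5.43 and 7.34 CPM in siSON. RSPH4A rose, from 0.258, 0.377 and 0.335 CPM to 0.896, 0.524 and 0.452 CPM. KRT8 and KRT18, keratins of simple epithelia, together summed to 764 to 863 CPM in siControl and 1331 to 1392 CPM in siSON. KRT18 went from 208, 220 and 233 CPM to 622, 610 and 614 CPM, and KRT8 from 556, 596 and 630 CPM to 709, 776 and 778 CPM. The 3 markers of blood and endothelium summed to 2.32 to 3.34 CPM in siControl and 0.610 to 1.19 CPM in siSON. The part of these marker levels in the results below was not tested.

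Among the 53 genes, 42 passed the edgeR test at an adjusted p of 0.05 and are called changed, 20 higher and 22 lower in siSON. That is 79.2% of them, beside 71.7% of all genes tested, of which 35.2% were higher and 36.5% lower. Of the 10734 genes tested within the members' range of mean log2 CPM, 75.1% were called, with a median absolute log2 fold change of 0.60. Changes of at least 2-fold (an absolute log2 fold change of at least 1) were called for 12 of the 53, 4 higher and 8 lower, beside 8.72% and 20.5% of all genes tested. The 4 were BBS9, LZTFL1, MKKS and WDR35, and the 8 were TTC30B, B9D1, TTC30A, MKS1, BBS1, NPHP4, IFT140 and TMEM231. Under scaling by library size alone the 2-fold calls were 1 higher and 14 lower. The siControl and siSON values did not overlap for 42 of the 53, 21 in each direction, beside 75.1% of all genes tested (36.9% higher and 38.2% lower). The median log2 fold change was -0.03, beside -0.03 for all genes tested, and the median absolute log2 fold change was 0.54, beside 0.63. As counts, these shares lie near those of all genes tested. Within every one of the 7 modules some subunits rose and others fell. The counts given below for single modules are small and stand beside the same 71.7% of all genes tested, split almost evenly by direction.

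**Figure D1:**
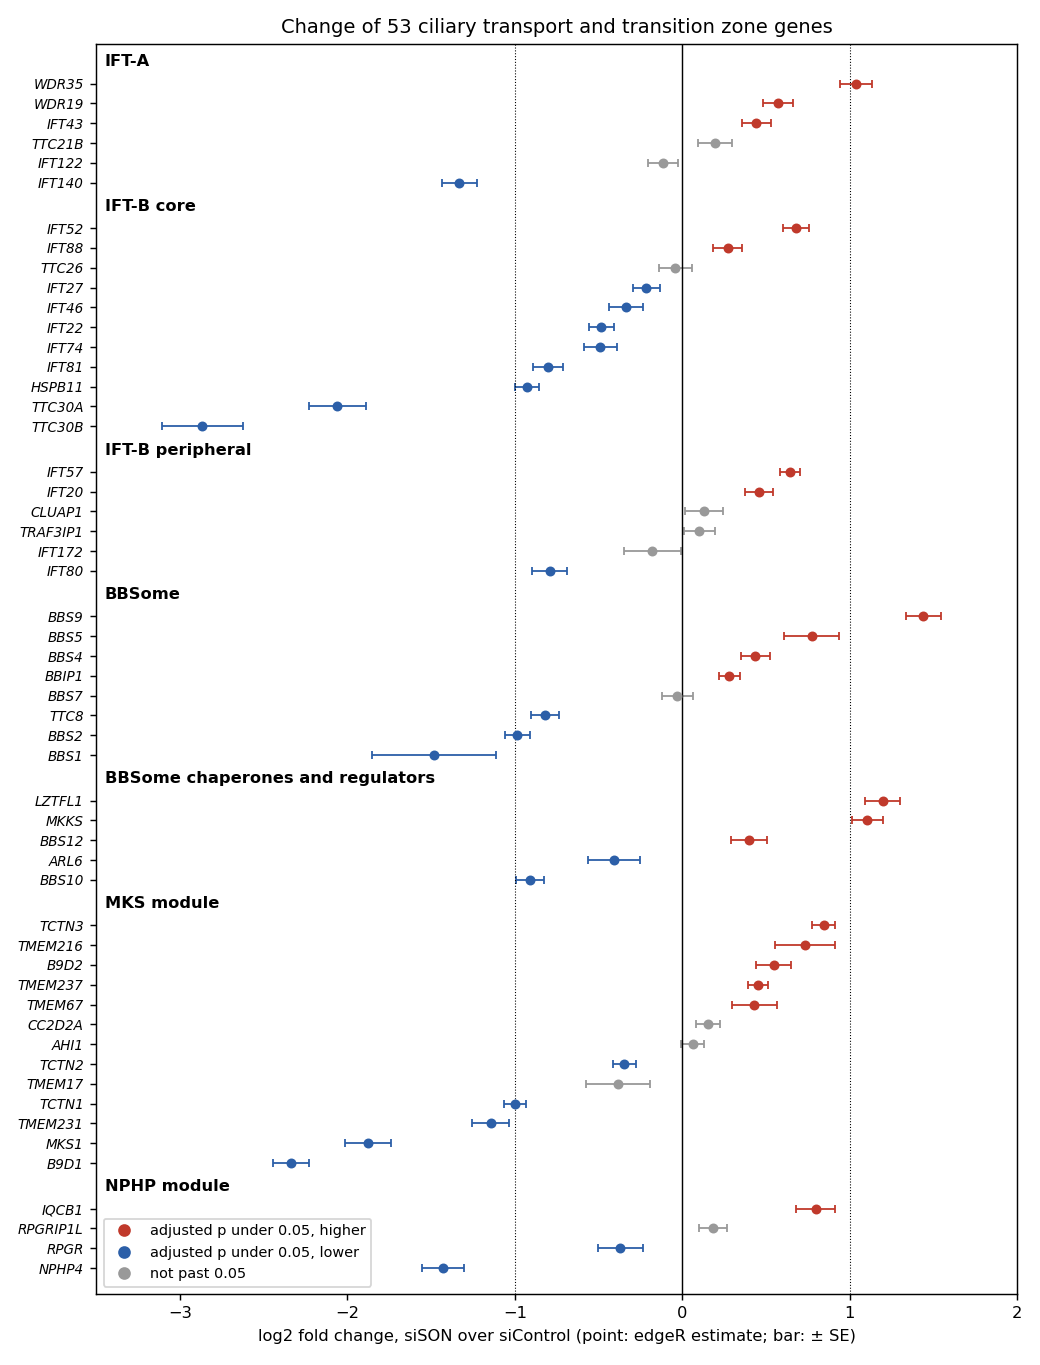
Log2 fold change of each of the 53 genes (x axis, siSON over siControl; point, edgeR estimate; bar, ± SE), grouped by module and sorted within it, with dotted lines at a 2-fold change. Each module holds genes called higher (red) and genes called lower (blue), from TTC30B at -2.87 to BBS9 at 1.44.

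IFT-A has 6 subunits, of which 3 rose, 1 fell and 2 did not pass the test. IFT140, one of the large core subunits (chromosome 16, 1510427 to 1612110, minus strand, 31 exons), had 17.8, 20.4 and 19.5 CPM in siControl and 8.18, 8.03 and 6.65 CPM in siSON, in the order of replicates 1 to 3 kept throughout. Every siSON library lay below every siControl library, and 39.7% of the control level remained (log2 fold change -1.33, SE 0.10, edgeR adjusted p 5.00e-07). IFT140 shares 6.3% of its exon bases with other genes, among them 1.5% with AL031719.2 on its own strand and 0.4% with TELO2 on the other. TELO2 had 3961, 3427 and 3910 counts in siControl and 587, 612 and 470 in siSON. The part of that overlap in the IFT140 result was not tested. WDR35, also called IFT121, a peripheral subunit (chromosome 2, 19910260 to 19990131, minus strand, 27 exons), had 22.5, 20.4 and 19.0 CPM in siControl and 48.1, 40.4 and 38.7 CPM in siSON. It went the other way without overlap (log2 fold change 1.04, SE 0.10, adjusted p 2.15e-06). WDR19, also called IFT144, rose from 31.6 ± 1.61 to 47.0 ± 5.90 CPM (SD, n = 3 each) and IFT43, a small subunit, from 11.3 ± 0.141 to 15.4 ± 1.06 CPM, by 0.57 and 0.44 on the log2 scale (edgeR adjusted p 0.000139 and 0.000664). IFT122 had 25.5, 26.4 and 26.0 CPM in siControl and 20.9, 25.3 and 25.7 CPM in siSON. Its groups overlapped, since siSON replicate 3 lay above siControl replicate 1 (log2 fold change -0.12, SE 0.09, adjusted p 0.253). TTC21B, also called IFT139, was at 19.8 ± 1.12 and 22.7 ± 2.94 CPM (log2 fold change 0.20, adjusted p 0.10). Without siSON replicate 1, its lowest siSON library, TTC21B was called higher (0.31, adjusted p 0.00334).

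Of the 11 genes of the IFT-B core, 8 fell, 2 rose and TTC26 did not pass the test. Both copies of the IFT70 subunit, TTC30A and TTC30B, held the 2 lowest fold changes of the core. TTC30B (chromosome 2, 177548998 to 177553014, minus strand, 1 exon) had 3.77, 4.20 and 4.39 CPM in siControl, which are 263, 267 and 328 counts, and 0.414, 0.834 and 0.452 CPM in siSON, which are 24, 43 and 23 counts. The groups did not overlap, and 13.8% of the control level remained (log2 fold change -2.87, SE 0.24, adjusted p 9.33e-07), the largest fall among the 53 genes. TTC30A (chromosome 2, 177612992 to 177618966, minus strand, 1 exon) had 5.20, 6.51 and 7.04 CPM in siControl and 1.38, 1.78 and 1.34 CPM in siSON. In TTC30A the groups were likewise apart, with 24.0% of the control level remaining (log2 fold change -2.06, SE 0.17, adjusted p 9.14e-07).

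These 2 genes are the 2 of the 53 whose principal transcript has no intron. Their coding sequences in GENCODE release 29 are 1995 bases each and differ at 80 bases, an identity of 96.0%, and the longest stretch without a difference runs for 272 bases, from coding base 1337 to 1608. A read from such a stretch cannot be given to 1 copy, and the treatment of such reads by the authors is not given in the sources used here, so the split of counts between the copies is uncertain. The stretch of 90 coding bases with the most differences, bases 1782 to 1871, holds 12 of them, shown in capitals to let the copies be compared:
TTC30A: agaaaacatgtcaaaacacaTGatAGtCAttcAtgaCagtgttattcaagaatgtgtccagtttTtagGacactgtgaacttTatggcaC
TTC30B: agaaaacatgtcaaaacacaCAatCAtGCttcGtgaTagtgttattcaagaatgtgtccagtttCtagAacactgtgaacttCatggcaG
Besides the copy, TTC30B shares 5.5% of its exon bases with AGPS on the other strand, whose counts were 5125, 4881 and 5855 in siControl and 5317, 5048 and 4939 in siSON. TTC30A shares 8.5% with the antisense gene AC073834.1, which had at most 7 counts in a library.

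The other core subunits changed by less than 2-fold. HSPB11, also called IFT25, which pairs with the small GTPase IFT27, fell from 31.9 ± 0.432 to 16.8 ± 0.926 CPM (± SD over n = 3 libraries; log2 fold change -0.93, SE 0.07, edgeR adjusted p 5.13e-07). IFT81 and IFT74, partners that bind tubulin together, fell by 0.80 and 0.49 on the log2 scale (adjusted p 7.99e-06 and 0.000985). IFT22, a small GTPase-like subunit, and IFT46 fell by 0.48 and 0.34 (adjusted p 0.000140 and 0.0128). IFT27 fell from 15.9 ± 0.819 to 13.7 ± 0.0542 CPM (log2 fold change -0.21, adjusted p 0.0308). The IFT46 call was lost under cyclic loess normalization (-0.22, adjusted p 0.0934) and without siSON replicate 2 (-0.27, adjusted p 0.0639) or 3 (-0.27, adjusted p 0.0596). The IFT27 call was lost under cyclic loess normalization (-0.088, adjusted p 0.341), with no filter on low counts (-0.21, adjusted p 0.0801), and without any 1 of siControl replicates 1 and 3 and siSON replicates 1, 2 and 3 (-0.20 to -0.21, adjusted p 0.0599 to 0.0818). IFT52, which joins the core to the peripheral subunits, rose from 23.5 ± 1.11 to 37.6 ± 2.87 CPM (log2 fold change 0.68, SE 0.08, adjusted p 1.09e-05). IFT88, a subunit whose loss prevents cilium assembly, rose from 12.6 ± 0.806 to 15.1 ± 0.480 CPM (log2 fold change 0.27, adjusted p 0.0139), a call lost under library size alone (0.072, adjusted p 0.464), upper-quartile scaling, and without siControl replicate 1 (0.19, adjusted p 0.0823) or 2 (0.26, adjusted p 0.0540). TTC26, also called IFT56, had 9.49, 9.22 and 10.4 CPM in siControl and 10.2, 9.05 and 8.97 CPM in siSON, which overlap (log2 fold change -0.04, adjusted p 0.714).

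Of the 6 peripheral IFT-B subunits, 2 rose, 1 fell and 3 did not pass the test. IFT80 (chromosome 3, 160256986 to 160399880, minus strand, 20 exons) had 18.5, 18.1 and 15.8 CPM in siControl and 10.6, 10.8 and 8.77 CPM in siSON, with no overlap (log2 fold change -0.79, SE 0.11, edgeR adjusted p 3.98e-05). It shares 35.7% of its exon bases with other genes, 27.2% with AC079594.2 on its own strand, which had at most 5 counts, and 8.5% with SMC4 on the other, which had 16694, 18549 and 20587 counts in siControl and 9447, 11525 and 11408 in siSON. The part of that overlap in the IFT80 result was not tested. IFT57, also called Hippi, rose from 43.3 ± 1.21 to 67.6 ± 2.0 CPM (± SD over n = 3 libraries; log2 fold change 0.64, SE 0.06, adjusted p 1.64e-06). IFT20, which also resides at the Golgi, rose from 17.7 ± 1.5 to 24.3 ± 1.29 CPM (log2 fold change 0.46, adjusted p 0.000523). TRAF3IP1, also called IFT54, had 20.3, 18.1 and 17.9 CPM in siControl and 22.5, 18.7 and 19.2 CPM in siSON. In it the groups overlapped (log2 fold change 0.10, SE 0.09, adjusted p 0.346), as they did in CLUAP1, also called IFT38 (0.13, adjusted p 0.316), and in IFT172 (-0.18, adjusted p 0.372). Without siSON replicate 1, which was the highest siSON library at 19.0 CPM beside 14.5 and 11.4, IFT172 was called lower (-0.37, adjusted p 0.0283). CLUAP1 was called higher without siSON replicate 3 (0.26, adjusted p 0.0431).

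**Figure D2:**
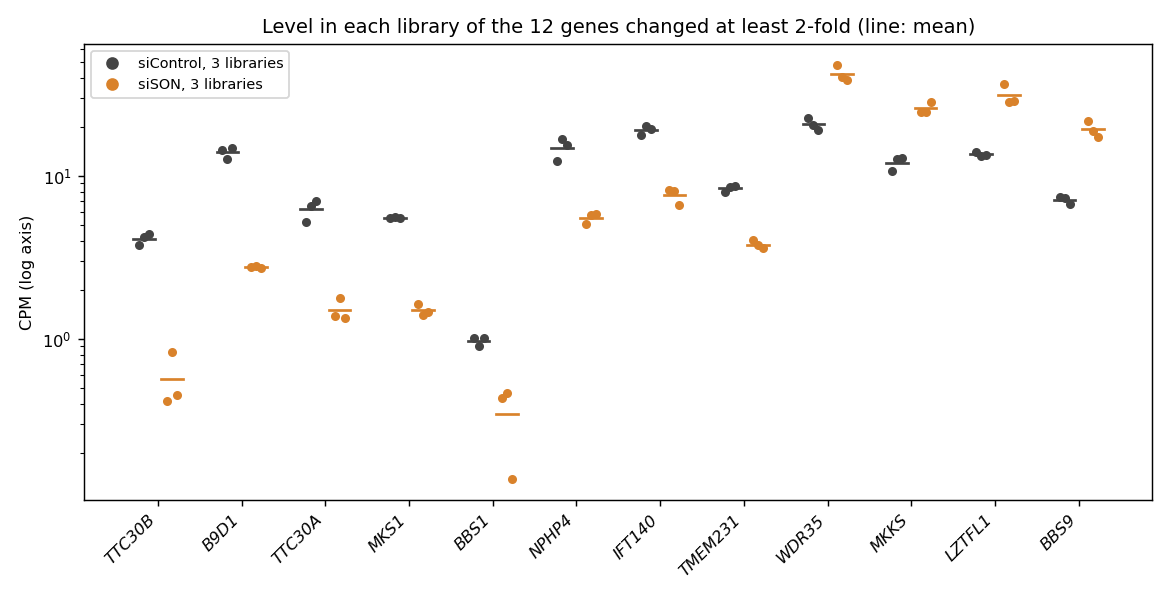
CPM in each of the 6 libraries (y axis, log scale) for the 12 genes called changed at least 2-fold, ordered by fold change; points are libraries and lines group means. The 12 were picked by their change in these same libraries, so their groups lie apart largely by that choice. Among all genes tested, 75.1% had groups that did not overlap.

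The BBSome has 8 subunits, of which 4 rose, 3 fell and BBS7 did not pass the test. BBS9 (chromosome 7, 33129244 to 33606068, plus strand, 22 exons), a beta-propeller subunit, had 7.37, 7.27 and 6.76 CPM in siControl and 21.8, 18.8 and 17.4 CPM in siSON. All siSON libraries were above all siControl libraries (log2 fold change 1.44, SE 0.10, edgeR adjusted p 2.66e-07), the largest rise among the 53 genes, and BBS9 shares no exon base with another gene. BBS1 (chromosome 11, 66510606 to 66533627, plus strand, 17 exons), the subunit that binds ARL6, had 1.02, 0.897 and 1.00 CPM in siControl, which are 71, 57 and 75 counts, and 0.431, 0.465 and 0.138 CPM in siSON, which are 25, 24 and 7 counts. It fell without overlap (log2 fold change -1.48, SE 0.37, adjusted p 0.00379). BBS1 shares 64.5% of its exon bases with other genes, 53.9% with AP002748.4 on its own strand, which had no count in any library, and 12.4% with ZDHHC24 on the other. ZDHHC24 had 1039, 1010 and 1275 counts in siControl and 414, 350 and 320 in siSON, and the part of either overlap in the BBS1 values was not tested.

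BBS2 and BBS7, beta-propeller subunits that bind each other, moved unequally. BBS2 fell from 41.3 ± 0.893 to 20.8 ± 1.62 CPM (± SD over n = 3 libraries; log2 fold change -0.99, SE 0.07, edgeR adjusted p 3.97e-07). BBS7 had 29.1, 31.9 and 29.4 CPM in siControl and 25.6, 32.8 and 30.1 CPM in siSON, and the groups overlapped (log2 fold change -0.03, SE 0.09, adjusted p 0.783). TTC8, also called BBS8, and BBS4, both built of tetratricopeptide repeats, differed in direction: TTC8 fell by 0.82 on the log2 scale (adjusted p 3.77e-06), while BBS4 rose from 15.1 ± 1.21 to 20.3 ± 1.02 CPM (log2 fold change 0.43, adjusted p 0.000837). BBS5, a subunit with pleckstrin homology domains, rose from 2.93 ± 0.575 to 5.01 ± 0.575 CPM (log2 fold change 0.77, SE 0.16, adjusted p 0.00133), and shares 21.9% of its exon bases with AC093899.2, which had no count. BBIP1, also called BBS18, the smallest subunit, rose from 27.1 ± 0.800 to 32.9 ± 0.396 CPM (log2 fold change 0.28, adjusted p 0.00218), a call lost under library size alone (0.084, adjusted p 0.257). BBIP1 shares 15.8% of its exon bases with PDCD4 on the other strand, which had 5175, 4818 and 5603 counts in siControl and 13437, 10963 and 10838 in siSON, and its part in the BBIP1 value was not tested.

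MKKS (BBS6), BBS10 and BBS12 are chaperonin-like proteins that help assemble the BBSome, ARL6 (BBS3) is the GTPase that recruits it to membranes, and LZTFL1 (BBS17) regulates its entry into the cilium. All 5 were called changed, 3 higher and 2 lower, beside 71.7% of all genes tested, of which 35.2% were higher and 36.5% lower. LZTFL1 (chromosome 3, 45823316 to 45916042, minus strand, 10 exons) had 14, 13.2 and 13.5 CPM in siControl and 36.4, 28.3 and 28.7 CPM in siSON, with no overlap (log2 fold change 1.20, SE 0.10, edgeR adjusted p 1.10e-06). MKKS (chromosome 20, 10401009 to 10434222, minus strand, 6 exons) had 10.7, 12.6 and 12.8 CPM in siControl and 24.8, 24.7 and 28.3 CPM in siSON, again apart (log2 fold change 1.11, SE 0.10, adjusted p 1.15e-06). MKKS shares 12.7% of its exon bases with AL034430.1 on its own strand, which had no count. BBS12 had 6.76, 8.07 and 8.15 CPM in siControl and 9.87, 10.6 and 9.80 CPM in siSON. The BBS12 groups did not overlap (log2 fold change 0.40, SE 0.11, adjusted p 0.00543), but the call was lost under library size alone (0.20, adjusted p 0.121). BBS10 went the other way, from 17.8 ± 0.984 to 9.45 ± 0.318 CPM (± SD over n = 3 libraries; log2 fold change -0.91, SE 0.08, adjusted p 2.10e-06). ARL6 fell from 4.38 ± 0.592 to 3.30 ± 0.445 CPM (log2 fold change -0.41, adjusted p 0.0344) with overlapping groups, and its call was lost under cyclic loess normalization (-0.058, adjusted p 0.756) and without siControl replicate 2 (-0.38, adjusted p 0.0941) or 3 (-0.35, adjusted p 0.109) or siSON replicate 1 (-0.31, adjusted p 0.119) or 2 (-0.38, adjusted p 0.0925).

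Of the 13 genes of the MKS module, the membrane-bound part of the transition zone, 5 rose, 5 fell and 3 did not pass the test. The B9-domain proteins B9D1, B9D2 and MKS1 form a complex of their own there. B9D1 (chromosome 17, 19337554 to 19378193, minus strand, 7 exons) had 14.5, 12.6 and 14.8 CPM in siControl and 2.76, 2.81 and 2.71 CPM in siSON. It was apart between groups, with 19.8% of the control level remaining (log2 fold change -2.34, SE 0.11, edgeR adjusted p 1.26e-08). MKS1 (chromosome 17, 58205437 to 58219605, minus strand, 18 exons) had 5.47, 5.55 and 5.49 CPM in siControl and 1.64, 1.40 and 1.46 CPM in siSON. MKS1 also fell without overlap, to 27.2% of the control level (log2 fold change -1.88, SE 0.14, adjusted p 3.10e-07). B9D2, the third B9-domain gene, rose instead, from 5.06 ± 0.207 to 7.39 ± 0.449 CPM (± SD over n = 3 libraries; log2 fold change 0.54, SE 0.11, adjusted p 0.000800). B9D1 shares 6.6% of its exon bases with MAPK7 on the other strand, and MKS1 2.7% with LPO, which had at most 1 count.

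The tectonics, which are secreted or membrane-bound transition zone proteins, also split. TCTN1 fell from 48.8 ± 1.58 to 24.4 ± 1.10 CPM (± SD over n = 3 libraries; log2 fold change -0.997, SE 0.07, edgeR adjusted p 1.48e-07), just short of a 2-fold change, and TCTN2 fell by 0.35 on the log2 scale (adjusted p 0.000702). TCTN3 rose from 59.0 ± 0.286 to 105.9 ± 9.86 CPM (log2 fold change 0.84, SE 0.07, adjusted p 8.28e-07). Among the transmembrane members, TMEM231 (chromosome 16, 75536744 to 75556286, minus strand, 7 exons) had 7.95, 8.51 and 8.65 CPM in siControl and 4.01, 3.74 and 3.58 CPM in siSON. TMEM231 fell without overlap (log2 fold change -1.15, SE 0.11, adjusted p 2.74e-06). It shares 9.7% of its exon bases with AC025287.1 on its own strand, which had at most 3 counts in a library. TMEM216, TMEM237 and TMEM67 rose by 0.73, 0.45 and 0.43 on the log2 scale (adjusted p 0.00341, 3.83e-05 and 0.0142). The TMEM67 call was lost under library size alone (0.23, adjusted p 0.146) and without siControl replicate 3 (0.37, adjusted p 0.0617). TMEM237 shares 23.3% of its exon bases with the pseudogene ENO1P4, which had no count. TMEM17 was at 2.16 ± 0.238 and 1.66 ± 0.327 CPM (log2 fold change -0.39, adjusted p 0.0941), and was called lower without siSON replicate 2 (-0.55, adjusted p 0.0355). CC2D2A, a scaffold with a C2 domain, was at 33.3 ± 1.49 and 37.0 ± 2.40 CPM, without overlap but not past the threshold (log2 fold change 0.15, adjusted p 0.0741), and was called higher without siSON replicate 2 (0.21, adjusted p 0.0358). AHI1, also called jouberin, had 38.7, 40.8 and 41.7 CPM in siControl and 39.6, 42.2 and 44.8 CPM in siSON. Its groups overlapped, and the estimate lay within its error of 0 (log2 fold change 0.06, SE 0.07, adjusted p 0.435).

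The NPHP module, named after nephronophthisis, is represented by 4 genes, of which 1 rose, 2 fell and 1 did not pass the test. NPHP4 (chromosome 1, 5862811 to 5992473, minus strand, 30 exons) had 12.4, 16.8 and 15.5 CPM in siControl and 5.03, 5.74 and 5.82 CPM in siSON. NPHP4 fell without overlap (log2 fold change -1.43, SE 0.13, edgeR adjusted p 1.43e-06). It shares 0.8% of its exon bases with KCNAB2 on the other strand, which had 220, 230 and 279 counts in siControl and 667, 581 and 571 in siSON. IQCB1, also called NPHP5, a calmodulin-binding partner of CEP290, rose from 8.08 ± 0.492 to 14 ± 2.02 CPM (± SD over n = 3 libraries; log2 fold change 0.80, SE 0.12, adjusted p 8.63e-05). RPGR, a regulator of small GTPases at the ciliary base, fell from 5.91 ± 0.355 to 4.57 ± 0.719 CPM (log2 fold change -0.37, adjusted p 0.0294). That call was lost under cyclic loess normalization (-0.065, adjusted p 0.688) and without siControl replicate 2 (-0.37, adjusted p 0.0732) or 3 (-0.35, adjusted p 0.0747) or siSON replicate 2 (-0.27, adjusted p 0.127) or 3 (-0.33, adjusted p 0.0878). RPGRIP1L, the scaffold on which other transition zone proteins assemble, had 23.4, 25.2 and 27.1 CPM in siControl and 26.2, 30.6 and 29.3 CPM in siSON. RPGRIP1L overlapped between groups (log2 fold change 0.18, SE 0.08, adjusted p 0.0699), and was called higher without siSON replicate 1 (0.26, adjusted p 0.0107).

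Levels of different genes were compared as CPM per kilobase of merged exons, which include those of rarely used transcripts, and again per kilobase of the principal transcript, a scale added after seeing the data. Much of the order turned with the length used. Per merged exons TCTN3 and IFT57 were the highest in siControl, at 18.3 and 11.5, and the median of the 53 was 2.65 in siControl and 2.63 in siSON. Per principal transcript BBIP1 and HSPB11 were the highest in siControl, at 37.3 and 34.8, and TCTN3 and IFT57 were at 21.5 and 13.5. BBS1 was the lowest in both groups on both scales, at 0.158 ± 0.0108 in siControl and 0.0561 ± 0.0293 in siSON per merged exons (SD, n = 3 each). BBS1 shares 53.9% of its exon bases with another gene on its own strand, and how reads there were counted is not given. The part of this in its low level was not tested.

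In siControl the levels of B9D1 and B9D2 lay within an SD of each other per merged exons, and B9D1 was higher per principal transcript. Per merged exons they were 3.81 ± 0.313 and 3.85 ± 0.157 CPM per kilobase in siControl (SD, n = 3 each), and per principal transcript 15.4 ± 1.27 and 4.93 ± 0.201. In siSON B9D1 was below B9D2 on both scales, at 0.753 ± 0.0132 and 5.61 ± 0.341 per merged exons and at 3.04 ± 0.0534 and 7.19 ± 0.437 per principal transcript. In IFT-A, WDR35 ranked 4 of 6 in siControl and 1 in siSON per merged exons, and 6 and 3 per principal transcript. IFT140 was the last of the 6 in siSON on both scales, and in siControl only per merged exons. HSPB11 was the first of the IFT-B core in siControl and the third in siSON, behind IFT52 and IFT22, on both scales. Per merged exons HSPB11 went from 9.85 ± 0.133 to 5.18 ± 0.286 CPM per kilobase. BBS9 ranked 6 of the 8 BBSome genes in siControl on both scales, and 4 per merged exons and 5 per principal transcript in siSON.

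**Figure D3:**
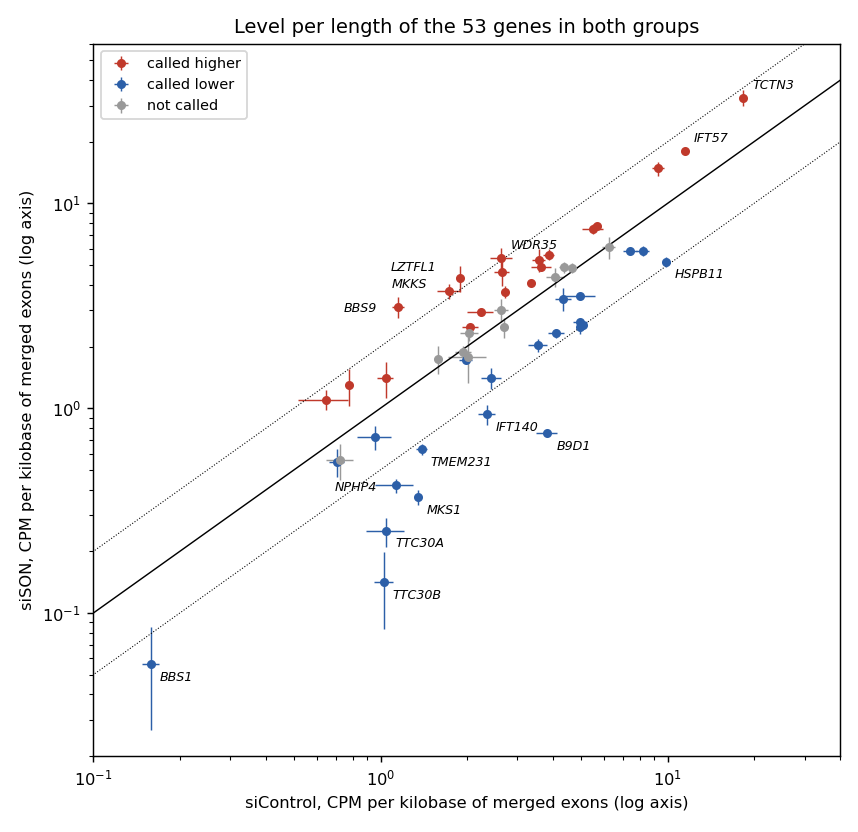
Mean level per length (CPM per kilobase of merged exons, log axes; bars, ± SD of 3 libraries) of each of the 53 genes in siControl (x) and siSON (y), with a solid line of equality and dotted lines at 2-fold. B9D1 lies at 3.81 in siControl and 0.753 in siSON, and TCTN3 is highest in both groups on this scale, which is not so per principal transcript.

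The 53 genes were compared with all genes tested in features of their principal transcript. They had a median of 14 introns, beside 6 for all genes tested, a median intron length of 1950 bases, beside 1897.5, and a transcript GC content of 43.3%, beside 48.7%. The 22 genes called lower had a median GC content of 48.4%, the 20 called higher 42.2% and the 11 not called 42.95%. The shortest intron, over genes with introns, had a median of 145.5, 233 and 156 bases in the same order. Its median was 168 bases over the 51 members with introns, beside 288 bases over 14718 genes tested. As a description across genes, which are not independent, Spearman's rho between log2 fold change and GC content was -0.22 over the 53 and -0.18 over 16585 genes tested. The corresponding rho for the median intron length was 0.13 over the 51 genes with introns and 0.21 over 14718 genes tested. For the shortest intron it was 0.14 and 0.10 over the same genes.

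RFX transcription factors bind the X-box, an imperfect inverted repeat in the promoters of many ciliary genes. Promoters of 300 bases around the annotated start, mostly upstream of it (RefSeq, GRCh38.p14), were at hand for 48 of the 53, not for WDR35, IFT22, BBS9, TMEM67 and TCTN2, with HSPB11, TTC26, TTC30A and TTC30B listed under newer symbols. The repeat searched for, GTNNCC and GGNAAC with 2 bases between them, read on both strands, was present in 9 of the 48 (18.8%), beside 1.79% of the 27305 genes in the promoter table. The half-site GTTGCC, which can lie inside the repeat, was present on either strand in 22 of the 48 (45.8%), beside 14.6%. The 9 matches are shown in windows of 30 bases on the gene's strand, with the repeat in capitals, because the share of these genes that hold it can be set beside that of all promoters:
AHI1, chr6:135497787-135497816: acgcatcgGTCGCCATGGGAACggcggcgt
ARL6, chr3:97764726-97764755: aagctcctGTTGCCAAGGGAACggtgcctg
B9D1, chr17:19378085-19378114: ctgggactGTTACCTTGGCTACtggctccc
BBIP1, chr10:110919186-110919215: ggcttcctGTTTCCAGGGTGACgtagattt
IFT57, chr3:108222433-108222462: ggagtctaGTTTCCCTGGTGACggattgtc
TMEM17, chr2:62506189-62506218: gccgcccgGTTGCCGTGGGAACcacggagc
TMEM231, chr16:75556271-75556300: agccgtcgGTTGCCGTGGAGACcgaggcga
TTC26, chr7:139133756-139133785: caggcgggGTTACCGTGGAGACagaacgtg
TTC30A, chr2:177618719-177618748: gttgccctGTTGCCGTGGTAACcgcacgca
Of the 9 genes that hold it, BBIP1 and IFT57 rose, ARL6, B9D1, TMEM231 and TTC30A fell, and AHI1, TMEM17 and TTC26 did not pass the test, with a median log2 fold change of -0.39. The other 39 genes with a promoter had a median of 0.10, with 15 higher and 16 lower. These small counts stand beside 35.2% higher and 36.5% lower among all genes tested. The part of the repeat in the changes was not tested. A match describes the letters of the window and does not show that a factor binds there.

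RFX factors were themselves among the genes listed besides the 53. Of 6 listed, RFX4 did not pass the filter and the other 5 were called changed, RFX1 and RFX3 higher and RFX2, RFX5 and RFX7 lower. The log2 fold changes were 0.50 for RFX1, 0.61 for RFX3 and -0.54 for RFX2 (edgeR adjusted p 0.00140, 0.00614 and 0.00256). RFX5 fell from 87.5 ± 7.81 to 59.5 ± 1.51 CPM (± SD over n = 3 libraries; log2 fold change -0.56, SE 0.07, edgeR adjusted p 2.63e-05), and RFX7 from 53.7 ± 5.25 to 40.4 ± 0.111 CPM (log2 fold change -0.41, adjusted p 0.000477). Of 9 genes of the IFT motors, 2 rose and 4 fell. WDR34, an intermediate chain of dynein 2, fell from 131.8 ± 4.32 to 28.0 ± 2.19 CPM (log2 fold change -2.23, SE 0.07, adjusted p 1.33e-09), and KIF3A, a motor subunit of kinesin-2, from 28.3 ± 0.791 to 12.9 ± 0.478 CPM (log2 fold change -1.13, adjusted p 1.28e-07). KIF3B, the partner of KIF3A in the same motor and named after its value was seen, rose from 76.5 ± 5.27 to 139.7 ± 6.22 CPM (log2 fold change 0.87, adjusted p 3.46e-07).

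Of 16 cargo adaptors and small GTPases, TUB did not pass the filter, 5 rose and 8 fell. TULP3, which brings membrane receptors to IFT-A, rose from 39.6 ± 3.38 to 134.5 ± 6.41 CPM (± SD over n = 3 libraries; log2 fold change 1.76, SE 0.07, edgeR adjusted p 5.16e-09), and RAB8A, a GTPase of vesicle delivery to the cilium, from 80.4 ± 2.49 to 154.5 ± 7.09 CPM (log2 fold change 0.94, adjusted p 6.31e-08). Of 18 further transition zone and inversin genes, RPGRIP1 did not pass the filter, 4 rose and 8 fell. TMEM107, a membrane protein of the MKS module, fell from 12.3 ± 0.219 to 2.49 ± 0.273 CPM (log2 fold change -2.31, SE 0.11, adjusted p 1.79e-08). KIAA0556, a microtubule-binding protein of the ciliary base, rose from 29.9 ± 1.00 to 57.7 ± 3.23 CPM (log2 fold change 0.95, adjusted p 2.18e-07). In all, 36 of the 46 listed genes tested were called, 13 higher and 23 lower. That is 78.3%, beside 71.7% of all genes tested, of which 35.2% were higher and 36.5% lower, and the median log2 fold change was -0.31, beside -0.03.

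**Figure D4:**
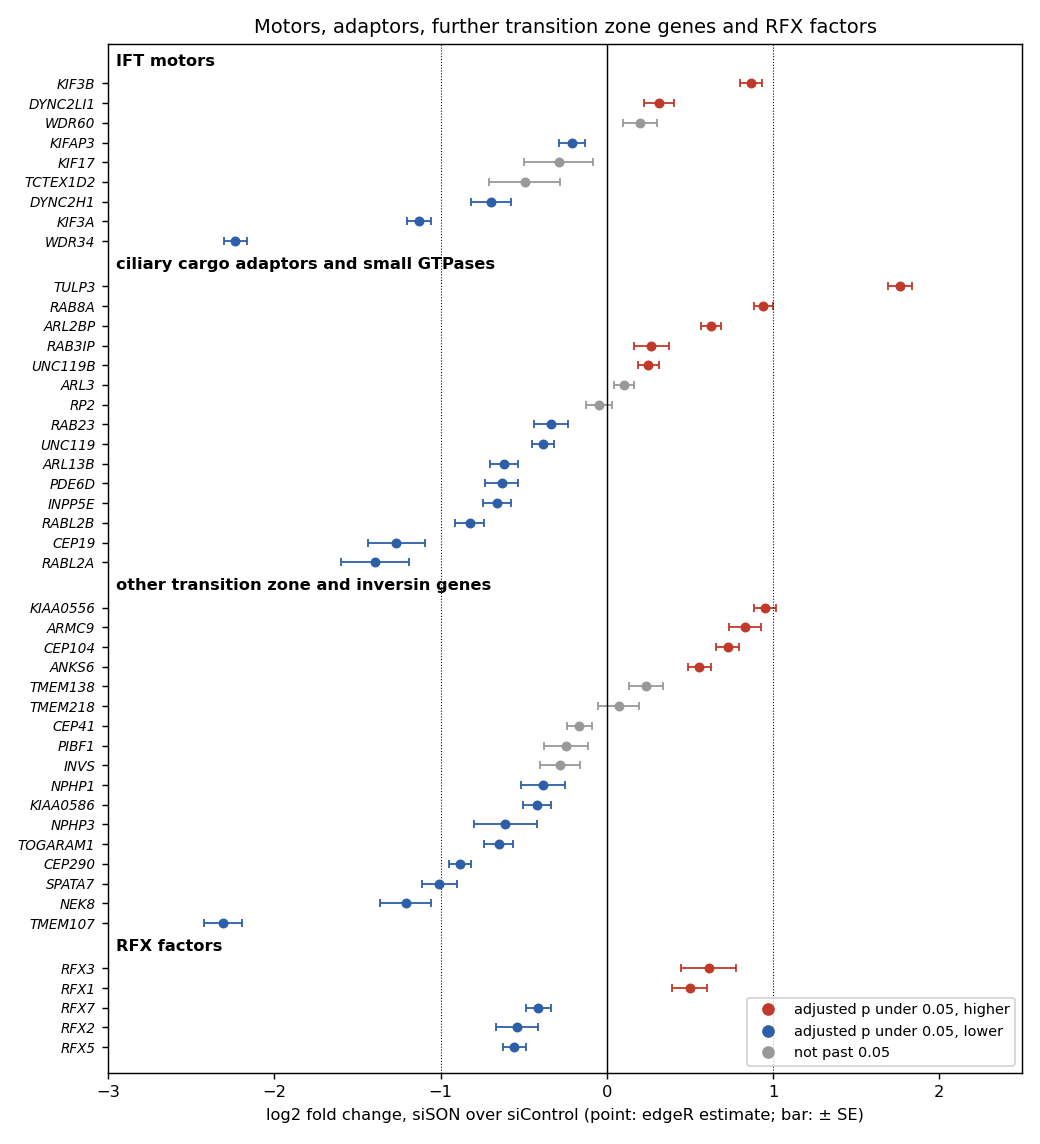
Log2 fold change (x axis, siSON over siControl; point, edgeR estimate; bar, ± SE) of the 46 tested genes of IFT motors, cargo adaptors, further transition zone genes and RFX factors, with dotted lines at 2-fold. Each group holds genes called higher (red) and genes called lower (blue), from TMEM107 at -2.31 to TULP3 at 1.76.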

How the data were processed

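The table the authors deposited holds raw counts of reads for each gene in each of the 6 libraries. Per the submitters' processing notes, cutadapt 1.16, STAR 2.5.2a, featureCounts 1.6.2 and DESeq2 1.28.1 were used with build hg38; the strand setting and the handling of reads that fit several genes are not given in the sources used here, so counts of overlapping or near-identical genes are uncertain. The counts entered edgeR 4.0.16 (R 4.3.3), with filterByExpr (minimum count 10) and TMM scaling. A robust quasi-likelihood fit covered all 16591 genes that passed, with the group alone as predictor and Benjamini-Hochberg adjustment over them. The fit was also run on simulated counts in which few genes changed, as many up as down. Such counts could not test the scaling where most genes are called changed, as here. Standard errors are the absolute log2 fold change over the square root of F. CPM use TMM-scaled library sizes. A floor of 3 counts was 0.0401 to 0.0590 CPM, for counting error only. All identifiers and 99.51% of names matched GENCODE release 29, which gave positions, exons and shared exon bases. Values per library are given for genes called at least 2-fold and for the largest and smallest change in each module, and group means for the 2 smallest adjusted p-values in each of the other ciliary lists. The members and lists were chosen with earlier results of these data known. Alternatives were DESeq2 1.42.0, limma 3.58.1 (voom and cyclic loess), RLE, upper-quartile and library-size scaling, other filters, the replicate block and leaving out each library.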

Additional observations from a re-analysis of the deposited data

How the results depend on the processing

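The number of the 53 genes called changed (42) ranged from 38, under cyclic loess, to 45 over 16 alternatives, and from 38 to 43 when 1 library was left out. Leaving out replicate 1 of both groups, chosen after seeing the data, gave 44 called, 21 higher and 23 lower. Of the 42, 34 kept call and direction under every alternative, and all 12 genes changed at least 2-fold did so wherever they were tested (BBS1 not under a mean count of at least 50). Scaling by library size alone moved the median of all genes tested by -0.20. Under it the 2-fold calls were 1 higher and 14 lower, and the members' median was -0.227, beside -0.223 for all genes; under upper-quartile scaling it was -0.12. The median ranged from -0.075 to 0.027 when 1 library was left out, changing sign without siControl replicate 3 (0.001) or siSON replicate 1 (0.027) or 3 (0.002). Genes not called changed sign under library size alone (TTC21B -0.001, TRAF3IP1 -0.095, CLUAP1 -0.067, CC2D2A -0.042, AHI1 -0.135, RPGRIP1L -0.012), cyclic loess (TTC26 0.173, AHI1 -0.040), upper-quartile scaling (AHI1 -0.028), or without a library (TTC26 from -0.098 to 0.002, with 0.001 between, and BBS7 from -0.102 to 0.077) or replicate 1 of both groups (CLUAP1 -0.026, BBS7 0.015). IFT122 (-0.312), TTC26 (-0.240) and TMEM17 (-0.581) were called lower under library size alone. The cause was not tested. With the replicate block 45 of the 53 were called, TTC21B (0.19), CC2D2A (0.15) and RPGRIP1L (0.19) in addition. The deviations of same-numbered libraries correlated at 0.194, 0.0461 and 0.118, and every library correlated best with its own number, a hint from the data and not the design, so the numbers were not used to pair. Depth limits BBS1 and TTC30B in siSON, at 7 to 43 counts. The order of levels between genes turned with the length used, as given above.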
